A study of Mus musculus with 6 samples.

Results

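The genes described here are the AP-1 subunits Fos, Fosb, Fosl2, Jun, Junb and Jund and the co-induced immediate early genes Atf3, Ier2, Ier3 and Zfp36. They were taken by symbol from the deposited gene count table, 10 genes of 55401 gene IDs, each matched to a single Ensembl ID in GENCODE M21. All 10 passed the filter on low counts, which left 16211 genes for testing. The study measured bulk RNA in 6 mouse bone marrow libraries of 2000 sorted cells each, 3 in each of 2 groups, and both groups are labelled wild type. The ESC-derived group held Lin-Sca-1+c-Kit- cells sorted from the marrow of primary recipients that had been given CD144+ cells made from embryonic stem cells. The labels give their treatment as differentiation of ESCs. The LSK group held untreated Lin-Sca-1+c-Kit+ cells, the fraction with haematopoietic stem and progenitor cells, from C57BL/6 mice, 6 to 8 weeks old. The embryonic stem cell line, the strain and age of the recipients, and any marker that separates donor from host cells in the sort were not stated in the labels used here. They also do not say whether replicates came from separate animals, so p-values measure the spread between these libraries, which may be technical.

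AP-1 is a dimer of basic leucine zipper proteins. Fos family proteins bind DNA mainly as partners of Jun family proteins, while Jun proteins can also pair with each other. Immediate early genes are transcribed within minutes of a signal without new protein synthesis, mostly through MAP kinases that act on the SRF, TCF and CREB factors at their promoters. In blood cells they answer growth factors, antigen receptors and stress, and their transcripts are short-lived. Zfp36 encodes tristetraprolin, which binds AU-rich elements of short-lived transcripts and marks them for decay.

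The promoters of Fos, Jun, Zfp36 and Junb are shown because the values below turn on these genes, the first 3 of which were lower and the last higher in ESC-derived cells. Each is the 250 bases before the RefSeq start (GRCm38.p6, the build called mm10 in the submitters' processing notes), written 5′ to 3′ on the gene's strand. Capitals mark the AP-1 site TGACTCA, its variant TGACATCA, the core TGACG of the cyclic AMP response element, the CArG box and TATAAA, searched on both strands.
Fos (chr12:85473640-85473889, plus strand): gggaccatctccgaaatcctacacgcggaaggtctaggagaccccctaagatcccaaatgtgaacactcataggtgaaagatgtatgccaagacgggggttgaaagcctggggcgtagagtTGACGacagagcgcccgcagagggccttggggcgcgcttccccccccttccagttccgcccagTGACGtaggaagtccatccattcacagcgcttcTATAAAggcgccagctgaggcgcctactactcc
Jun (chr4:95052223-95052472, minus strand): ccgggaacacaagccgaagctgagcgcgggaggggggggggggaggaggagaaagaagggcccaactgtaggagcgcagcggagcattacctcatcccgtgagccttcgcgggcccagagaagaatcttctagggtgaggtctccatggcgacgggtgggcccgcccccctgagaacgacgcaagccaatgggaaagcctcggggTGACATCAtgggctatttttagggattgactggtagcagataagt
Zfp36 (chr7:28379229-28379478, minus strand): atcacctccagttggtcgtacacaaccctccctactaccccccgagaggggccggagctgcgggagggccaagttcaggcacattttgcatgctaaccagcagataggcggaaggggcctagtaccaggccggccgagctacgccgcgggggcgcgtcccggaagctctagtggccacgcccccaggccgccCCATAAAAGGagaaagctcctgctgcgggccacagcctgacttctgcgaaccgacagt
Junb (chr8:84978749-84978998, minus strand): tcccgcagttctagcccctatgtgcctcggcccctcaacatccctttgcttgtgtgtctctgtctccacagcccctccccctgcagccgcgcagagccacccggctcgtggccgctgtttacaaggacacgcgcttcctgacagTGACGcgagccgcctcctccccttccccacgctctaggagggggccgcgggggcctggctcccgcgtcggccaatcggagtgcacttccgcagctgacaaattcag
The Fos window held the core TGACG 129 and 66 bases before the start and TATAAA 33 bases before it. The Jun window held TGACATCA 45 bases before the start, the Zfp36 window a CArG box, the site of SRF, 58 bases before it, and the Junb window the core TGACG 106 bases before it. RefSeq promoters were found for 9 of the 10 genes, all except Ier2. The core TGACG was in 4 of these 9 windows (Fos, Fosb, Junb and Atf3) and in 17.8% of all 32851 windows of the same length. The CArG box was in 1 of 9 and in 1.47% of all windows, TGACATCA in 1 of 9 and 2.93%, and TATAAA in 1 of 9 and 12.4%. The AP-1 site TGACTCA and the full element TGACGTCA, which contains the core, were in 0 of the 9 windows, against 4.46% and 1.55% of all windows. GGGCGG, the GC box, was in 7 of 9 windows and in 32.7% of all, and is not capitalised here. These matches describe letters in the window and do not show binding. Bases further than 250 before the start were not searched, so a motif absent here may lie further upstream.

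Total counts per library were 46299936 to 49269286 in the ESC-derived group and 41580006 to 44481252 in the LSK group. LSK replicate 2 lay strictly between LSK replicates 1 and 3 for 61.4% of tested genes, against 28.0 to 34.8% for each ESC-derived library within its group and 18.0 and 18.4% for the other LSK libraries. It lay between them for 8 of the 10 genes, and what changed without it is given beside the counts below. Levels are given as CPM, counts scaled by library size. Marker lists are set beside the labels. They were chosen with earlier results of these data known, so they are not an independent check. Of 10 T cell markers, 10 were higher in ESC-derived cells, with summed levels of 11507 to 12175 CPM in ESC-derived libraries and 122 to 152 CPM in LSK libraries. Of 10 stem and progenitor markers, 9 were lower and 1, Cd48, was higher in ESC-derived cells, and Hoxa9 had 0 counts there. Among all tested genes, 14.8% were higher and 15.2% lower in ESC-derived cells. Kit had 2, 4 and 6 counts in ESC-derived replicates 1 to 3 and 2081, 2171 and 2550 counts in LSK replicates 1 to 3. The ESC-derived cells thus carried T cell transcripts, Cd3e and Cd8a among them, under a Lin-negative label.

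Most of the 10 genes were lower in ESC-derived cells. Of the 10, 7 fell, 1 rose (Junb) and 2 did not pass (Fosl2 and Jund) at an adjusted p under 0.05 (edgeR quasi-likelihood test, Benjamini-Hochberg over all 16211 genes). Of all tested genes, 15.2% fell and 14.8% rose, 30.0% in either direction. All 7 genes that fell did so by at least 2-fold, which was true of 13.2% of all tested genes. Without LSK replicate 2, 6 of the 10 genes fell and 1 rose, and over all genes 1250 fell and 1466 rose, against 2466 and 2395 with it. The median log2 fold change (ESC-derived minus LSK) was -2.28 over the 10 genes and -0.07 over all tested genes. The groups did not overlap in CPM for any of the 10, against 49.8% of all tested genes without overlap. The 10 genes were chosen with earlier results of these data known, so these comparisons with all tested genes only describe them. Together the 10 genes held 0.595 to 0.705% of all counts in ESC-derived libraries and 2.36 to 2.74% in LSK libraries. In bulk samples, fewer cells with a transcript and less of it per cell cannot be told apart. Cell origin, the c-Kit gate and transplantation differed together between the groups, so their parts cannot be told apart either.

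**Figure D1:**
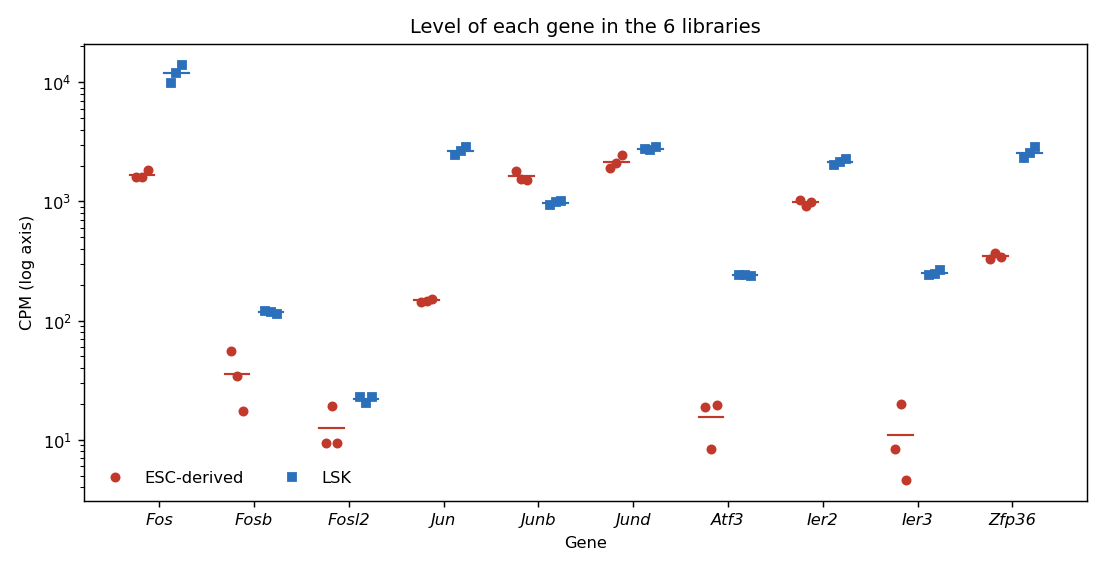
Level of each of the 10 genes in CPM (log axis) in the 3 ESC-derived (circles, left) and 3 LSK libraries (squares, right), with a line at each group's mean. Junb is the only gene of the 10 whose ESC-derived libraries all lie above the LSK libraries, and Fos in LSK cells reaches 14031 CPM.

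Among the Fos family genes described here, Fos carried nearly all of the signal and fell. Another Fos family gene, Fosl1, was not among them. Fosl1 averaged 0.357 ± 0.500 CPM in ESC-derived and 3.14 ± 2.98 CPM in LSK libraries (SD) and did not pass the threshold (edgeR adjusted p = 0.221). Fos (ENSMUSG00000021250, mm10 chromosome 12, 85473890 to 85477273, plus strand) encodes the prototype Fos protein. It had 1615, 1595 and 1825 CPM in ESC-derived replicates 1 to 3, against 9771, 11937 and 14031 CPM in LSK replicates 1 to 3. Every ESC-derived library lay far below every LSK library, and the LSK libraries differed among themselves by up to 1.44-fold. The log2 fold change was -2.83 ± 0.16 (SE, from 3 libraries in each group, as for every fold change), a level 7.10-fold lower in ESC-derived cells (edgeR adjusted p = 5.54e-05). By CPM over all gene IDs, Fos ranked 66 in ESC-derived cells and 4 in LSK cells.

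Fosb (ENSMUSG00000003545, chromosome 7, 19302696 to 19310051, minus strand) encodes a Fos protein that is induced along with Fos. It had 55.2, 34.3 and 17.3 CPM in ESC-derived replicates 1 to 3, against 121, 119 and 115 CPM in LSK replicates 1 to 3. The ESC-derived libraries spread 3.20-fold and the LSK libraries 1.05-fold, with no overlap. Fosb fell by a log2 fold change of -1.73 ± 0.39 (edgeR adjusted p = 0.0164, with a range over 16 alternatives of 2.1e-05 to 0.0591). The call was lost without LSK replicate 2 (adjusted p = 0.0507) and without ESC-derived replicate 2 (adjusted p = 0.0591). Fosl2 (ENSMUSG00000029135, chromosome 5, 32135801 to 32157842, plus strand) encodes Fra-2, a Fos protein with slower kinetics. It had 9.35, 19.2 and 9.34 CPM in ESC-derived replicates 1 to 3, against 22.7, 20.1 and 23.0 CPM in LSK replicates 1 to 3. ESC-derived replicate 2 lay close under the lowest LSK library and the other two ESC-derived libraries further below. Fosl2 did not pass the threshold (edgeR adjusted p = 0.139, with 0.0207 to 0.259 over 16 alternatives), at a log2 fold change of -0.80 ± 0.35. Without ESC-derived replicate 2 it passed, at -1.23.

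The Jun family moved both ways, with Jun far lower, Junb higher and Jund not past the threshold. Jun (ENSMUSG00000052684, chromosome 4, 95049034 to 95052222, minus strand), the founding partner of Fos, had 144, 146 and 153 CPM in ESC-derived replicates 1 to 3. In LSK replicates 1 to 3 it had 2450, 2634 and 2854 CPM. The libraries of each group lay close together and the groups were far apart. Jun fell by a log2 fold change of -4.16 ± 0.11, a 17.9-fold lower level in ESC-derived cells (edgeR adjusted p = 3.67e-06). Only 7.33% of tested genes had a lower log2 fold change. Its antisense gene Junos held 38 counts over the ESC-derived and 65 over the LSK libraries, against 19492 ESC-derived counts for Jun itself.

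Junb (ENSMUSG00000052837, chromosome 8, 84974484 to 84978718, minus strand), a Jun protein that can oppose Jun at shared targets and restrains myeloid progenitor growth in mice, was the 1 gene of the 10 that rose. It had 1805, 1533 and 1525 CPM in ESC-derived replicates 1 to 3, against 938, 984 and 1008 CPM in LSK replicates 1 to 3. Each ESC-derived library exceeded each LSK library. The log2 fold change was 0.73 ± 0.10, a level 1.66-fold higher in ESC-derived cells (edgeR adjusted p = 0.00253, with a range over 16 alternatives of 1.41e-09 to 0.0205), and the call held in all 16 alternatives. Junb overlaps Prdx2 on the opposite strand over 173 of its 2301 exon bases, and the kit does not mark strand, so reads there cannot be told apart. Prdx2, a peroxiredoxin, averaged 224 ± 14.4 CPM in ESC-derived and 284 ± 1.25 CPM in LSK cells (SD), below Junb in both groups.

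Jund (ENSMUSG00000071076, chromosome 8, 70698949 to 70700616, plus strand) encodes a Jun protein that is expressed without stimulation in many cell types. It had 1921, 2103 and 2447 CPM in ESC-derived replicates 1 to 3, against 2728, 2708 and 2848 CPM in LSK replicates 1 to 3. The groups did not overlap, but the gap between the highest ESC-derived and the lowest LSK library was smaller than the range of the ESC-derived group. Jund did not pass the threshold (edgeR adjusted p = 0.0502, with 0.00608 to 0.127 over 16 alternatives), at a log2 fold change of -0.36 ± 0.11, and it passed as lower in 8 of the 16 alternatives.

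**Figure D2:**
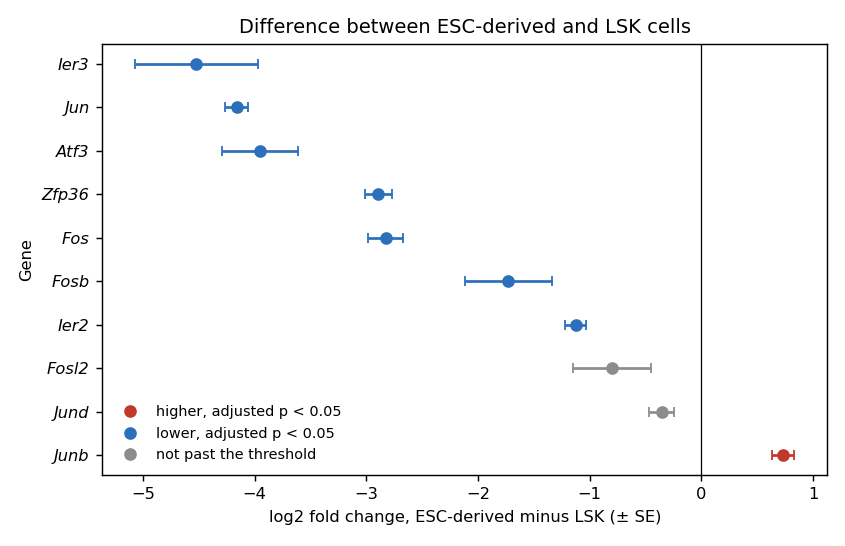
Log2 fold change (ESC-derived minus LSK) of the 10 genes with its SE as a bar, ordered from the lowest at the top, Ier3 at -4.52, to the highest at the bottom, Junb at 0.73. Blue points fell, the red point rose and grey points did not pass an adjusted p of 0.05.

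Atf3, Ier2, Ier3 and Zfp36 all fell. Atf3 (ENSMUSG00000026628, chromosome 1, 191170296 to 191218039, minus strand) encodes a stress-induced factor of the ATF family that can pair with Jun proteins. It had 18.8, 8.29 and 19.5 CPM in ESC-derived replicates 1 to 3, against 241, 241 and 238 CPM in LSK replicates 1 to 3. The LSK libraries lay close together, and ESC-derived replicate 2 was the lowest of all. Atf3 fell by a log2 fold change of -3.95 ± 0.34 (edgeR adjusted p = 0.000369). Ier3 (ENSMUSG00000003541, chromosome 17, 35821684 to 35822923, plus strand), a short-lived regulator of survival signalling, had 8.42, 19.9 and 4.58 CPM in ESC-derived replicates 1 to 3. In LSK replicates 1 to 3 it had 243, 245 and 267 CPM. Its ESC-derived libraries spread 4.34-fold, the widest of the 10 genes, yet all lay far below the LSK libraries. Ier3 had the lowest log2 fold change of the 10, -4.52 ± 0.55, a 23.0-fold lower level in ESC-derived cells (edgeR adjusted p = 0.00151).

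Ier2 (ENSMUSG00000053560, chromosome 8, 84661331 to 84662852, minus strand), a nuclear protein induced with the serum response, had 1028, 917 and 996 CPM in ESC-derived replicates 1 to 3, against 2016, 2135 and 2261 CPM in LSK replicates 1 to 3. Both groups were tight and did not overlap. Its log2 fold change of -1.12 ± 0.09 was the smallest of the 7 falls in size (edgeR adjusted p = 0.000303). Zfp36 (ENSMUSG00000044786, chromosome 7, 28376784 to 28380253, minus strand) had 326, 368 and 342 CPM in ESC-derived replicates 1 to 3, against 2295, 2528 and 2882 CPM in LSK replicates 1 to 3. All ESC-derived libraries were far below all LSK libraries. Zfp36 fell by a log2 fold change of -2.89 ± 0.12, a 7.43-fold lower level in ESC-derived cells (edgeR adjusted p = 1.98e-05).

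Levels of different genes were compared as CPM per exon kilobase (CPM divided by the length of all annotated exons). In ESC-derived cells the order was Jund at 1293 ± 160.3, Fos at 714 ± 54.1, Junb at 704 ± 69.1, Ier2 at 644 ± 37.7, Zfp36 at 99.6 ± 6.11 and Jun at 46.3 ± 1.43 CPM per exon kilobase (SD). Ier3 at 9.69 ± 7.04, Atf3 at 7.20 ± 2.91, Fosb at 5.70 ± 3.05 and Fosl2 at 1.30 ± 0.585 CPM per exon kilobase came last. Neighbours whose ESC-derived libraries overlapped were Fos and Junb, Junb and Ier2, Ier3 and Atf3, and Atf3 and Fosb. In LSK cells Fos came first at 5065 ± 906, then Jund at 1655 ± 45.6, Ier2 at 1405 ± 80.5, Jun at 829.7 ± 63.3, Zfp36 at 740.1 ± 85.2 and Junb at 424 ± 15.6 CPM per exon kilobase. Ier3 at 223 ± 11.8, Atf3 at 112 ± 0.911, Fosb at 18.9 ± 0.505 and Fosl2 at 2.27 ± 0.162 CPM per exon kilobase followed. There, Jun and Zfp36 were the only neighbours that overlapped. By their means per exon kilobase, Fosb and Fosl2 were the lowest 2 genes in both groups. Not every ESC-derived library kept that order. Fosb lay above Atf3 in ESC-derived replicate 1 (8.85 against 8.73 CPM per exon kilobase) and replicate 2 (5.49 against 3.85). Jun stood above Junb in LSK cells and below it in ESC-derived cells. The order and the ratios below depend on the length used. All exons and the longest transcript measured 6243 and 3782 bases for Fosb, and 2154 and 1984 for Atf3. For Junb they measured 2301 and 1809 bases, and for Zfp36 3470 and 2790. Close neighbours such as Fosb and Atf3 may change places under the longest transcript, and orders by it are not given.

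The makeup of the 6 AP-1 subunits, as shares of their summed CPM per exon kilobase, differed between the groups. Fosl1 was left out of these shares. Fos family transcripts made up 26.0, 25.8 and 26.4% in ESC-derived replicates 1 to 3, against 59.8, 63.9 and 66.3% in LSK replicates 1 to 3. The difference of -37.3 percentage points had an exact two-sided permutation p of 0.10, the smallest that 3 against 3 libraries allow. With the longest transcript in place of all exons, the difference was -38.5 percentage points. Jund held 43.0, 47.4 and 49.6% and Junb 29.3, 25.1 and 22.4% in ESC-derived replicates 1 to 3. In LSK replicates 1 to 3, Jund held 23.4, 20.4 and 18.9% and Junb 5.83, 5.37 and 4.85%. The share of Jun was 1.62 to 1.73% in ESC-derived libraries and 9.91 to 11.0% in LSK libraries. Junb outnumbered Jun per exon kilobase by a ratio of 13.8 to 17.4 in ESC-derived libraries, and the same ratio was 0.490 to 0.530 in LSK libraries. The ratio of Fos to Junb ran from 0.876 to 1.17 in ESC-derived libraries and from 10.2 to 13.6 in LSK libraries. Within the Fos family, Fos alone held 98.6 to 99.5% in ESC-derived libraries and 99.5 to 99.7% in LSK libraries. The summed level of the 6 subunits was 2659 to 2957 CPM per exon kilobase in ESC-derived libraries and 6987 to 9027 in LSK libraries.

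**Figure D3:**
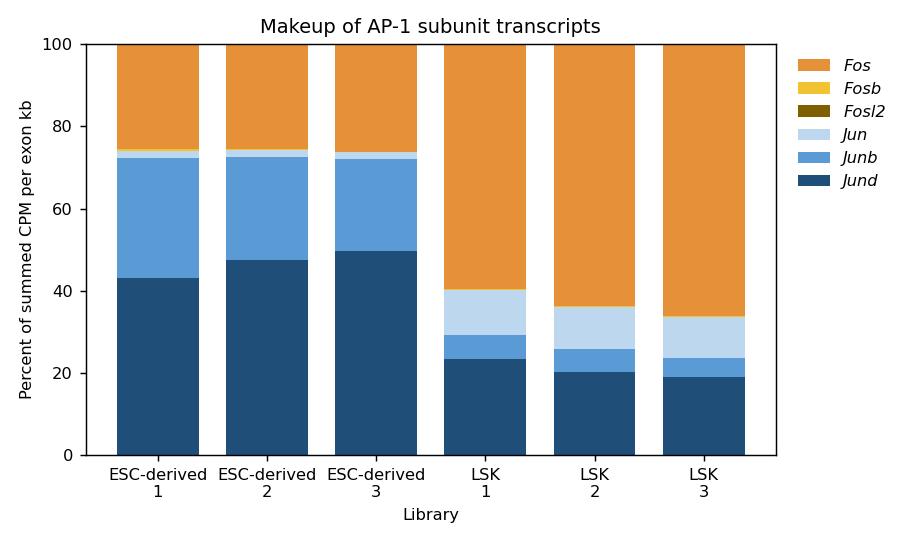
Share of each AP-1 subunit in the summed CPM per exon kilobase of the 6 subunits, 1 stacked bar per library (percent), with the ESC-derived libraries left of the LSK libraries. Fos family colours (orange and yellow) fill 25.8 to 26.4% of the ESC-derived bars and 59.8 to 66.3% of the LSK bars.

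Most other AP-1 and ATF family genes did not pass the test. Of 16 tested, 3 fell, 2 rose and 11 did not pass, a share of calls near the 30.0% of all tested genes, with a median log2 fold change of -0.57 against -0.07 over all tested genes. Batf, which pairs with Jun proteins and works with IRF4 in lymphocytes, averaged 146 ± 15.4 CPM in ESC-derived libraries, against 44.0 ± 3.07 CPM in LSK (log2 fold change 1.73 ± 0.14, edgeR adjusted p = 0.000249). Maf, a large Maf protein found in several T cell subsets, rose by 3.09 ± 0.38 on the log2 scale, to 63.0 ± 10.02 CPM in ESC-derived cells, against 7.37 ± 3.62 CPM in LSK cells. Mafk, a small Maf protein, fell by a log2 fold change of -2.24 ± 0.23. The falls numbered 1 without ESC-derived replicate 3, 1 without LSK replicate 2, 1 with no low-count filter and 5 with DESeq2.

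Most kinases and factors upstream of immediate early genes did not pass the test. Of 28 tested, 3 fell, 1 rose and 24 did not pass, where 30.0% of all tested genes were called. The median log2 fold change was 0.06. Mef2c, a MADS box factor of progenitors and B cells, averaged 0.868 ± 0.306 CPM in ESC-derived libraries, against 163 ± 8.04 CPM in LSK, a log2 fold change of -7.54 ± 0.31 (edgeR adjusted p = 1.75e-05). Crem, a CREB family factor that includes the inducible repressor ICER, rose by 1.71 ± 0.35 on the log2 scale. Mkl2, an actin-regulated SRF cofactor listed as Mrtfb in the annotation, and Elk3, an SRF partner of the TCF group, fell by log2 fold changes of -0.94 ± 0.23 and -0.92 ± 0.27. Without LSK replicate 2 only Mef2c of this list was called. Among the other fits that left out a library, the calls of Mkl2 and Elk3 were lost without LSK replicate 3, that of Mkl2 without LSK replicate 1, and that of Elk3 without ESC-derived replicate 2 or 3.

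Other immediate early and stress genes split between the groups. Of 36 tested, 12 fell, 10 rose and 14 did not pass, where 30.0% of all tested genes were called. The median log2 fold change was -0.30. Without LSK replicate 2, 8 fell and 9 rose. Egr1, a zinc finger factor of the growth factor response, averaged 257 ± 28.8 CPM in ESC-derived libraries, against 1475 ± 236 CPM in LSK (log2 fold change -2.52 ± 0.15, edgeR adjusted p = 8.94e-05). Nr4a1, the orphan nuclear receptor Nur77, averaged 155 ± 14.9 and Rhob, a small GTPase, 7.21 ± 3.77 CPM in ESC-derived cells. In LSK cells these genes averaged 1356 ± 94.4 and 37.1 ± 5.51 CPM, and both fell, by log2 fold changes of -3.13 ± 0.12 and -2.36 ± 0.41. In the other direction, Btg1, an antiproliferative gene of resting lymphocytes, averaged 606 ± 35.0 CPM in ESC-derived libraries, against 113 ± 1.72 CPM in LSK (log2 fold change 2.42 ± 0.10). Gadd45g, a stress sensor that acts on p38 MAP kinase, rose by 3.27 ± 0.26, and Arc, known from neurons, by 4.42 ± 0.76 from a low level. Arc averaged 5.90 ± 1.60 CPM in ESC-derived libraries, against 0.273 ± 0.178 CPM in LSK.

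Heat shock genes, which respond to stress and cell handling, were tested as a separate list. Of 13, 6 rose, 0 fell and 7 did not pass, where 30.0% of all tested genes were called. The median log2 fold change was 0.51. The 0 falls in edgeR's quasi-likelihood test compare with 1 at an unadjusted p under 0.05, 2 with library totals only and 1 with the DESeq2 Wald test. Hspa1a had 192, 208 and 45.5 CPM in ESC-derived replicates 1 to 3, against 18.7, 20.6 and 12.4 CPM in LSK replicates 1 to 3. ESC-derived replicate 3 was well below the other two ESC-derived libraries and above all LSK libraries. Its log2 fold change was 3.10 ± 0.57, and that of Hspa1b was 2.98 ± 0.53. Both encode the inducible chaperone Hsp70 from near-identical sequences, so reads may be split between them. Hsph1, a nucleotide exchange factor of Hsp70, rose by 1.11 ± 0.24. Without LSK replicate 2, 4 genes of the list rose, and the calls of Hsph1 and Hspa8 were lost. The part of stress and handling in the AP-1 differences was not tested.

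**Figure D4:**
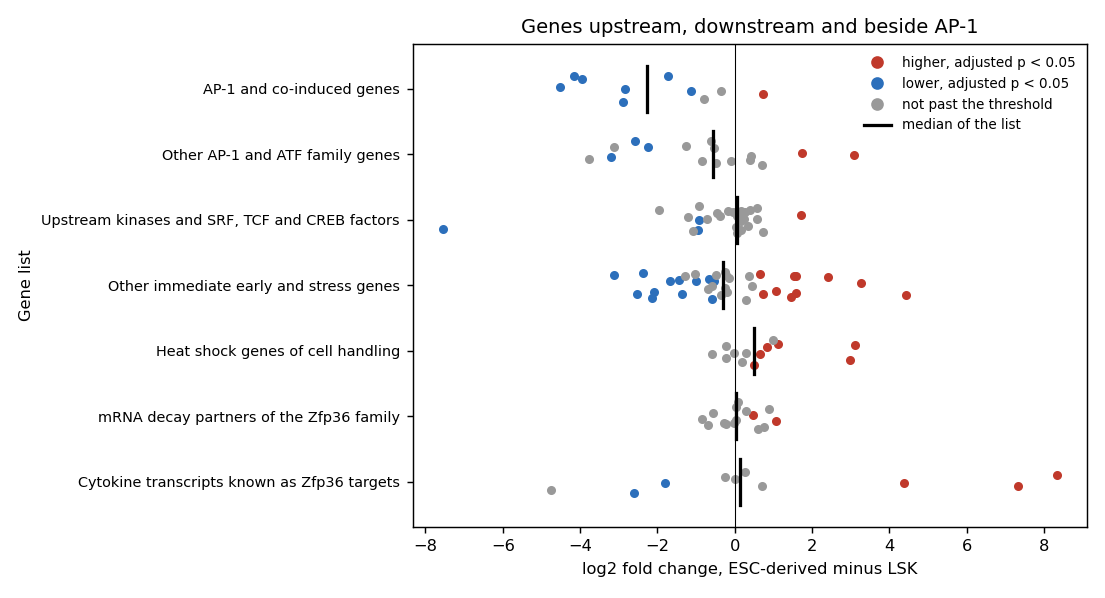
Log2 fold change (ESC-derived minus LSK) of each tested gene in the 10 AP-1 and co-induced genes and in the 6 gene lists set beside them, 1 point per gene, with a black line at each list's median. The 10 genes have a median of -2.28, and the medians of the 6 lists lie between -0.57 and 0.51. Genes and lists were chosen with earlier results of these data known.

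Genes tied to Zfp36 in RNA decay were examined next. Of 15 decay partners tested, 2 rose, 0 fell and 13 did not pass, where 30.0% of all tested genes were called. The median log2 fold change was 0.04. The relatives Zfp36l1 and Zfp36l2 were among those that did not pass, and Zfp36l3 had 0 counts in every library. Elavl1, which encodes the stabilising AU-rich element binder HuR, averaged 152 ± 13.5 CPM in ESC-derived libraries, against 72.8 ± 24.2 CPM in LSK (log2 fold change 1.06 ± 0.26). Hnrnpd, which encodes AUF1, rose by 0.47 ± 0.13 on the log2 scale. The Elavl1 call was lost in 4 of 16 alternatives, among them those without ESC-derived replicate 1 or 3 and with library totals only. The Hnrnpd call was lost in 8 of 16 alternatives, among them those without ESC-derived replicate 1 or 3 and those that left out an LSK replicate, whether 1, 2 or 3. For this list, the 0 falls in edgeR's quasi-likelihood test stand beside 1 at an unadjusted p under 0.05, 1 with library totals only and 1 with the DESeq2 Wald test.

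Of 10 tested cytokine transcripts known as targets of Zfp36, 3 rose, 2 fell and 5 did not pass. The share called over all tested genes was 30.0%. The median log2 fold change of the 10 was 0.14. Ifng, the interferon of T and NK cells, averaged 571 ± 80.6 CPM in ESC-derived libraries, against 3.55 ± 0.928 CPM in LSK (log2 fold change 7.33 ± 0.26, edgeR adjusted p = 1.08e-05). Il2, the T cell growth factor, averaged 18.8 ± 5.18 CPM in ESC-derived libraries, against 0.891 ± 0.109 CPM in LSK (log2 fold change 4.39 ± 0.39). Csf2, which encodes GM-CSF, held 2529 counts over the ESC-derived and 8 over the LSK libraries. All 8 were in LSK replicate 2, under the floor of 12 counts, and no fold is given. The chemokine genes Ccl3 and Cxcl2 fell, by log2 fold changes of -2.61 ± 0.21 and -1.81 ± 0.28. Ccl3 averaged 105 ± 28.3 CPM in ESC-derived libraries, against 645 ± 9.57 CPM in LSK.

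Genes with a pattern most like Fos and Jun were found by Euclidean distance in log2 CPM, centred on each gene's mean, over the 6 libraries. The 3 genes nearest to Fos were Arrdc4, an arrestin-like gene, at a distance of 0.08, Zfp36 at 0.27 and Ttyh3, which encodes a membrane protein of the tweety family, at 0.34. Arrdc4 averaged 1.16 ± 0.0812 CPM in ESC-derived libraries, against 8.45 ± 1.75 CPM in LSK. Ttyh3 averaged 5.82 ± 1.09 CPM in ESC-derived libraries, against 35.6 ± 4.77 CPM in LSK. The 3 nearest to Jun were Gm47921 at 0.13, the purinergic receptor gene P2rx6 at 0.16 and Ifitm2, an interferon-induced membrane protein gene, at 0.33. Gm47921 and P2rx6 had 0 counts in ESC-derived cells and averaged 0.787 ± 0.0767 and 0.715 ± 0.105 CPM in LSK cells, so their distance depends on the prior count of 2 in the log2 CPM. Ifitm2 averaged 122 ± 10.5 CPM in ESC-derived libraries, against 2317 ± 409 CPM in LSK.

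Transcripts of other cell types moved with the groups and are given beside the AP-1 values. Over all tested genes, 14.8% were higher and 15.2% lower in ESC-derived cells. NK and cytotoxic markers were higher for 8 of 8, with summed levels of 14668 to 17928 CPM in ESC-derived and 573 to 627 CPM in LSK libraries. B cell markers were lower for 4 of 7 and summed to 7.42 to 15.1 CPM in ESC-derived and 524 to 576 CPM in LSK libraries. Plasma cell markers were lower for 5 of 7 and higher for 1, and summed to 96.5 to 118 CPM in ESC-derived and 4227 to 4951 CPM in LSK libraries, with Tnfrsf17 at 0 in ESC-derived cells. Without LSK replicate 2, 4 plasma cell markers were lower and 0 higher in edgeR's test, the calls of Sdc1 and Prdm1 being lost. Immunoglobulin genes held 0.0188 to 0.0373% of counts in ESC-derived and 7.54 to 9.48% in LSK libraries. Neutrophil markers were higher for 5 of 8 and lower for 1, and summed to 2174 to 4287 CPM in ESC-derived and 1101 to 1211 CPM in LSK libraries. Monocyte and macrophage markers were higher for 2 of 7 and lower for 1, with sums of 1338 to 1820 CPM in ESC-derived and 871 to 947 CPM in LSK libraries. Endothelial markers were lower for 3 of the 5 tested and summed to 28.3 to 44.5 CPM in ESC-derived and 138 to 170.4 CPM in LSK libraries. The call of Pecam1 was lost without LSK replicate 2. Cdh5, the CD144 gene, was not tested, with 0 counts in ESC-derived and 8 counts in LSK libraries. With immunoglobulin and T cell receptor genes left out of library sizes, 7 of the 10 genes fell and 1 rose. The part of these cell types in the AP-1 differences was not tested.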

How the data were processed

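RNA from 2000 sorted cells per library was made into cDNA with the SMART-Seq v4 kit and into libraries with Nextera XT, per the labels' protocols. HISAT, StringTie and mm10 are listed per the submitters' processing notes; versions, settings and annotation: not given in the sources used here. What the authors deposited is one estimated count for each Ensembl gene and library, in whole numbers without normalization. Many are multiples of 4 (40.1 to 47.2% of values from 1 to 20), and the floor for low genes was 12 counts over a group. The table's 6 column names stand in a single header field and were assigned in that order. Of 55401 IDs, 55141 had an entry in GENCODE M21, made for this build, the source of symbols, positions and exon lengths.

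Genes were filtered with filterByExpr, scaled with TMM and tested with edgeR 4.0.16 (R 4.3.3) by the robust quasi-likelihood F test, ESC-derived minus LSK, two-sided, Benjamini-Hochberg, threshold 0.05, with no replicate block. CPM used TMM-scaled library sizes. The SE is the log2 fold change over the root of F. Alternatives were other scalings, DESeq2 1.42.0, limma-voom (limma 3.58.1), other filters (none, or 50 counts in 3 libraries), values divided by 4, the replicate block and each library left out, 16 in all. Tested on simulated data of this comparison (15521 genes, 50 changed per size), the fit recovered 10% of genes at 2-fold and 56% at 4-fold. It recovered 84% at 8-fold and 86% at 16-fold, and called 7 unchanged genes. In the simulation 15321 of the 15521 genes were unchanged, while 30.0% of tested genes were called in the real data. With so few changed genes the Benjamini-Hochberg cutoff is stricter, so these rates do not carry over to the real comparison.

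The genes and lists were chosen with earlier results of these data known. Named genes were the 10 genes, up to 3 higher and 3 lower called genes of each list by size of change with a mean of 5 CPM or more where higher, and the 3 nearest to Fos and to Jun. Zfp36l1, Zfp36l2, Zfp36l3, Prdx2, Junos, Hspa8, Fosl1 and the cell type markers are named outside that rule, chosen after their values were seen. Mkl1, Mkl2 and Cyr61 were matched through RefSeq synonyms. Promoters come from RefSeq (GRCm38.p6). A further cell type marker list is not reported here.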

Additional observations from a re-analysis of the deposited data

How the results depend on the processing

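Of the 160 log2 fold changes of the 10 genes over 16 alternatives, 149 kept their direction and side of the threshold, 9 gained a call and 2 lost one, and 0 reversed. The gains were Jund under 8 alternatives (RLE, upper quartile and library totals only scaling, DESeq2, limma-voom, the stricter filter, values divided by 4 and without ESC-derived replicate 3) and Fosl2 without ESC-derived replicate 2, and the losses were Fosb without LSK replicate 2 or ESC-derived replicate 2. Between 7 and 9 of the 10 were called in every alternative, 6 to 8 lower and 1 higher. Of the 444 values of other named genes, 27 lost a call and 0 reversed. With the replicate number as a block, 3220 genes were called, 1488 of them lower, against 4861 and 2466 without the block, and 7 of the 10 genes fell and 1 rose. The block also ended the calls of Elk3, Elavl1, Hnrnpd, Gm47921 and P2rx6, and left 1 fall among the other AP-1 and ATF genes and 0 rises among the decay partners in edgeR's test. Deviations of same-numbered libraries correlated at 0.00426, 0.0537 and 0.00625 for replicates 1, 2 and 3. The labels state no pairing, and correlations from so few libraries cannot decide whether same-numbered libraries shared a batch. ESC-derived replicate 3 and LSK replicate 1 correlated best with each other and the other 4 libraries with their own number. Leaving out 1 library gave 2716 to 4603 called genes, 1466 to 2163 higher and 1250 to 2440 lower, the lowest of each without LSK replicate 2. Over these libraries left out, the difference in the Fos family share ran from -39.1 to -35.8 percentage points. Library totals only shifted the median log2 fold change of all genes by -0.25 and left 1756 higher and 3057 lower calls, against 2395 and 2466. Under that scaling Junb stood at 0.48 and Jund at -0.60. Leaving out any of the ESC-derived replicates 1, 2 and 3 shifted that median by -0.10. Those fits tested 17753 to 17852 genes, against 16211 in the main fit, so their median is over a different set of genes. Small differences such as that of Jund are at the limit of 3 libraries a group.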

Other observations

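The spread of the 10 genes within a group differed by gene. In ESC-derived libraries the coefficient of variation was 72.6% for Ier3, 53.4% for Fosb, 44.9% for Fosl2 and 40.4% for Atf3, and 3.08 to 12.4% for the other 6 genes. In LSK libraries it was 17.9% for Fos, 11.5% for Zfp36 and 0.817 to 7.63% for the other 8. In ESC-derived cells replicate 1 was the highest for Fosb, replicate 2 the highest for Ier3 and Fosl2, and replicate 2 the lowest for Atf3. These genes were also the lowest 4 per exon kilobase in ESC-derived cells, with 217 to 2322 counts per library. Values are given as they stand, and no cause was tested.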
